A study of Homo sapiens with 26 samples.

Results

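Cells of 786-O given SARNP siRNA 9 were compared with cells given SARNP siRNA 3, which sets 2 reagents against the same gene side by side. The comparison takes 4 of the 26 RNA-seq libraries of the study, 2 libraries of each siRNA, chosen by their labels in the table that holds the SARNP and DDX39A knockdowns. A further 2 libraries of that table, from cells given a non-targeting control siRNA (NTC), show which of the siRNAs moved a gene. 786-O is a line from a human clear cell renal carcinoma. It has no functional VHL, the protein that marks HIF factors for breakdown, and HIF-2 stays active in it. Cells of all 3 groups grew in RPMI with 10% serum and received siRNA with DharmaFECT 1. They were replated after 24 h and collected 48 h after transfection, and poly(A) RNA was read as paired ends of 42 bases. A misspelt treatment label, SARPN siRNA9, was read as SARNP from the sample titles. The labels leave unsaid if paired libraries were grown as separate cultures, so the spread between them may be technical. The p-values rest on a spread pooled over all 10 libraries of that table and drawn toward a trend across genes. Each siRNA is 1 reagent in 1 line, and the comparison reaches no further than these reagents in this line.

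SARNP is an RNA-binding protein that works with the TREX complex, which couples transcription and splicing to export of mRNA from the nucleus and is concentrated at nuclear speckles. A small interfering RNA is loaded into an Argonaute protein and cuts a fully paired transcript. It can also lower other transcripts through pairing of the bases near its 5′ end, mostly with sites in 3′ UTRs. For that reason a knockdown is commonly read from more than 1 siRNA.

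The knocked-down gene was low with both siRNAs. SARNP had 84.4 and 72.4 units of normalized signal in the siRNA 9 libraries, 119 and 130.3 in the siRNA 3 libraries and 907 and 942 in the NTC libraries, where a unit is 1 read divided by the size factor of its library. The means were 78.4 ± 8.49 with siRNA 9, 125 ± 8.02 with siRNA 3 and 924 ± 24.7 with NTC (SD, n = 2 each). These are 8.48% of the NTC mean with siRNA 9 and 13.5% with siRNA 3, and no library of a group overlapped another group. The siRNAs differed in SARNP itself by -0.66 on the log2(signal + 1) scale, with an adjusted p of 1e-08 (limma, Benjamini-Hochberg over all genes tested). All log2 differences below are on that scale, with siRNA 3 or NTC subtracted, and ± after one is its standard error.

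Depth was 18086176 and 12484613 gene reads in the siRNA 9 libraries, 11874206 and 11830796 in the siRNA 3 libraries, and 11978018 and 11865403 in the NTC libraries. Within each of these groups the 2 libraries differed by more than counting error, the chi-square being 1.58 to 2.03 times its degrees of freedom. Of the 9 markers listed for 786-O, 8 were in the table, and CA9 was the one not listed. Their summed signal was 57100 to 61160 with siRNA 9, 65010 to 65550 with siRNA 3 and 74210 to 77290 with NTC, with no overlap between the groups. Of markers of other cells, 2 of 14 immune genes (CD68 and CSF1R), 0 of 9 endothelial genes and 3 of 10 fibroblast and pericyte genes (COL1A1, PDGFRB and RGS5) were listed. The summed signal of the immune pair was 237 to 257 with siRNA 9, 231 to 255 with siRNA 3 and 247 to 272 with NTC, and that of the fibroblast and pericyte genes was 102 to 112 with siRNA 9, 175 to 205 with siRNA 3 and 163 to 183 with NTC. The part of any of these marker sums in the results below was not tested.

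A short sequence word stood apart among the transcripts that were low with siRNA 9. Every 7-base word held by the annotated 3′ UTR of at least 100 measured genes was described, 15564 words over 10907 genes (93.4% of those tested), on the transcript strand only. For each word the median difference from NTC of genes that hold it was set against that of genes that do not. With siRNA 9 these gaps ran from -0.26 to 0.16, and the lowest were GCCTAAA (-0.26, 914 genes) and TGCCTAA (-0.25, 1009 genes). The 4 lowest words, and 7 of the 8 lowest, held GCCTAA. With siRNA 3 the gaps ran from -0.11 to 0.09, and GCCTAAA and TGCCTAA had gaps of -0.03 and -0.02. The lowest word with siRNA 3, TACGGCT, was held by 102 genes, and the lowest among words held by at least 500 genes was GCTCCAC (-0.09, 915 genes). These words were picked by their values in these same libraries, so no test is given. Low values with siRNA 9 for genes that hold them, here and below, partly follow from that choice. They describe the words and are no separate support.

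The joined 8-base word TGCCTAAA is shown here in 27 bases of 3′ UTR, in capitals, for the target and for 4 genes lower with siRNA 9 that are described below. The sequences are from GENCODE v29 transcripts, written 5′ to 3′ on the transcript strand, and lie in 3′ UTR exons at GRCh38 chr12:55757432-55757458 (minus strand) for SARNP, chr14:54478002-54478028 (minus) for GMFB, chr17:30465660-30465686 (plus) for CPD, chrX:34627369-34627395 (minus) for TMEM47 and chr1:94173433-94173459 (minus) for ARHGAP29.
SARNP: tcttggtcacatataTGCCTAAAtgca
GMFB: ataaatacttatttaTGCCTAAAaatg
CPD: ctgattctttaatatTGCCTAAAtcgg
TMEM47: ctgtgtcctctttaaTGCCTAAAgctg
ARHGAP29: gtttctgaatgcaagTGCCTAAAaaga
The bases around the word differed between the genes. Of the 15 bases before it, GMFB shared 5 with SARNP, TMEM47 6, ARHGAP29 4 and CPD 1 at this site. CPD and ARHGAP29 each held 2 copies, and the copies not shown shared 7 (CPD) and 4 (ARHGAP29) of the 15 bases with SARNP. The word was in 3.68% of the 3′ UTRs searched, with 0.357% among the 3638 shortest, 2.26% among the 3633 of middle length and 8.42% among the 3636 longest.

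Genes with the whole word were more often below NTC with siRNA 9, and their median was close to NTC with siRNA 3. The 401 genes that hold TGCCTAAA, SARNP among them, had a median difference from NTC of -0.30 with siRNA 9 and -0.01 with siRNA 3. The 608 genes with TGCCTAA and no A after it had medians of -0.18 with siRNA 9 and -0.02 with siRNA 3, and the 449 with GCCTAAA and no T before it had -0.19 with siRNA 9 and -0.03 with siRNA 3. The 722 genes with GCCTAA alone had -0.05 with siRNA 9, and the 8727 genes without it had 0.03. The share of genes called lower than NTC with siRNA 9 was 58.9% with the 8-base word, 48.2% with TGCCTAA and no A after it, 50.3% with GCCTAAA and no T before it, 35.6% with GCCTAA alone and 25.8% without it. Over 2-fold lower with siRNA 9 were 60 of the 401 genes (15.0%) and 170 of the 8727 (1.95%), beside 3.29% of all genes tested.

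Genes with the word were also lower on balance within each length class of 3′ UTR. Among 3′ UTRs of middle length, genes with the 8-base word had a median of -0.48 with siRNA 9 (82 genes), against 0.05 without GCCTAA (3070 genes). Among the longest the values were -0.25 (306 genes) and 0.10 (2152 genes), and among the shortest -0.78 (13 genes) and 0.00 (3505 genes). The knocked-down gene SARNP is counted among these 13. Genes with the word also had 3′ UTRs richer in A and T within each length class. The median AT share was 60.5% against 54.8% among the shortest, 62.3% against 57.8% in the middle and 62.1% against 60.2% among the longest. The part of base composition was not tested. Where TGCCTAA lay in coding sequence and the 3′ UTR had no GCCTAA, 379 genes had a median of -0.10 with siRNA 9. The gap between genes with the 8-base word and genes without GCCTAA was -0.35 and -0.31 in the single siRNA 9 libraries. It was -0.01 in each siRNA 3 library. The siRNA 9 and NTC libraries also served to pick the words, so these gaps are no separate support. No mature human miRNA of the 2545 searched in RefSeq carries bases 2 to 8 that pair with TGCCTAA or GCCTAAA. Shorter matches were not searched, and a part of miRNAs in these results was not tested. The sequences of the siRNAs are not in the labels, so whether either word pairs with siRNA 9 was not tested.

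**Figure D1:**
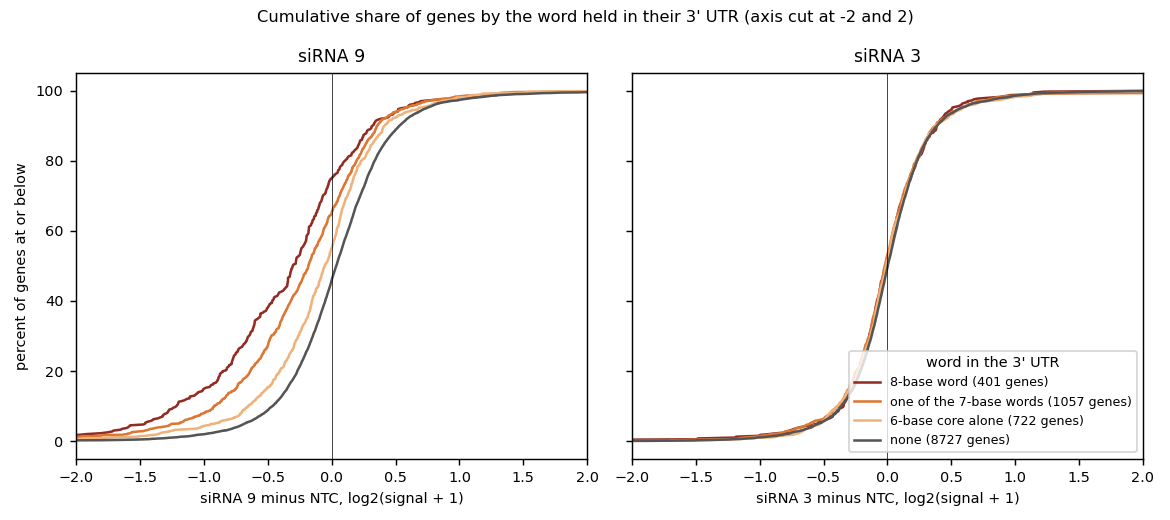
Cumulative percent of genes (vertical axis) at or below each difference from NTC (horizontal axis, log2(signal + 1)), left for siRNA 9 and right for siRNA 3, by the word in the 3′ UTR: the 8-base word (401 genes), one of the 7-base words within it, the 6-base core alone (722 genes) or none (8727 genes). With siRNA 9 the curves lie apart, the 8-base word farthest left with a median of -0.30, while with siRNA 3 they run together.

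Across all genes the siRNAs differed widely. Of 11673 genes tested, 3699 (31.7%) were higher and 3788 (32.5%) were lower with siRNA 9 than with siRNA 3 at an adjusted p below 0.05, and the median difference of all genes was -0.01. Over 2-fold, 423 genes (3.62%) were higher and 610 (5.23%) lower. Against NTC, siRNA 9 had 3390 genes higher (29%) and 3430 lower (29.4%), and siRNA 3 had 2373 higher (20.3%; 1572 with DESeq2) and 2452 lower (21%). Both comparisons with NTC use the same 2 control libraries, so their values are given side by side and their likeness is not read.

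The largest class of genes that differed between the siRNAs departed from NTC with siRNA 9 alone. Of the 7487 called either way (64.1%), 3077 (41.1%) were called against NTC with siRNA 9 alone, 1455 of them higher and 1622 lower with siRNA 9. For siRNA 3 alone the number was 1359 (18.2%). Another 1517 (20.3%) were called with both siRNAs in opposite directions, and this class held 468 of the 1033 genes over 2-fold. That share partly follows from the definition of the class, which sets the siRNAs on either side of NTC. A further 834 (11.1%) were called with both in the same direction but to different extents, and 700 (9.35%) with neither. The last number became 1369 without NTC replicate 1 and 1365 without NTC replicate 2, and with DESeq2 the opposite and same-direction classes held 962 and 481 genes. The 8-base word was in 7.4% of the genes lower with siRNA 9 alone (113 of 1530 with a 3′ UTR) and in 1.3% of those higher (18 of 1418), against 3.7% of all genes. Among genes called with both in opposite directions it was in 7.1% of those lower and 1.9% of those higher with siRNA 9.

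**Figure D2:**
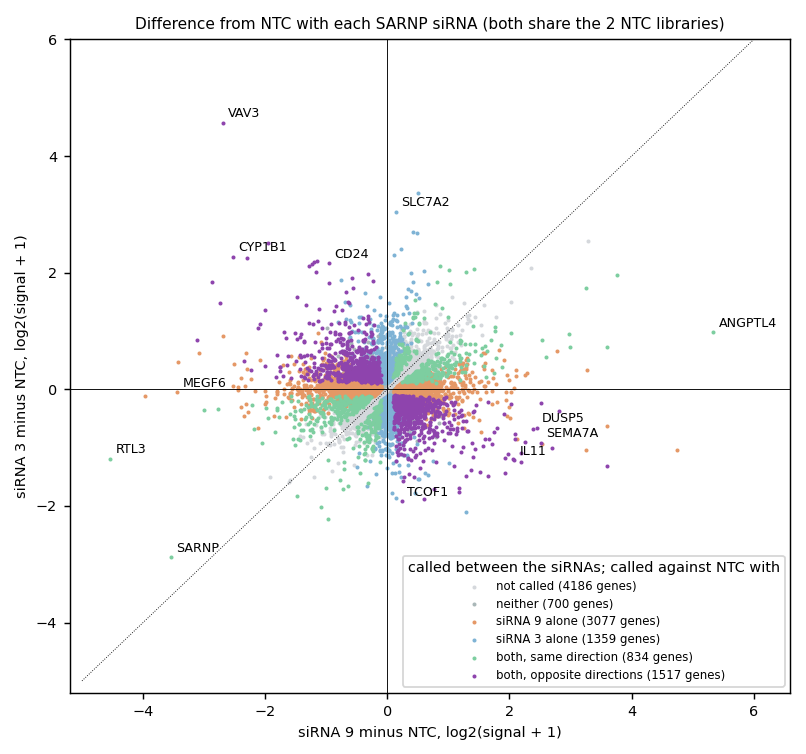
Each point is 1 of 11673 genes, with its difference from NTC with siRNA 9 (horizontal axis) and with siRNA 3 (vertical axis), both log2(signal + 1) and both from the same 2 NTC libraries, coloured by which siRNA departed from NTC. The 1517 purple genes lie at the upper left and lower right, where the siRNAs moved them in opposite directions.

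Transcripts that were low with siRNA 9 alone included several with the word. CPD, a membrane carboxypeptidase of the secretory pathway, had 492 and 577 in the siRNA 9 libraries, against 2867 and 2893 in the siRNA 3 libraries and 2877 and 2919 in the NTC libraries. The fall with siRNA 9 was of one size against either, -2.43 ± 0.05 against siRNA 3 and -2.44 against NTC. GMFB, which acts on branched actin filaments, had 173 and 197 with siRNA 9, against 1028 and 1053 with siRNA 3 and 969.6 and 1054 with NTC (-2.49 ± 0.07). CCNG1, a cyclin induced by p53, holds TGCCTAA without the final A and had 358 and 345 with siRNA 9, against 1854 and 1829.6 with siRNA 3 and 1730.3 and 1805 with NTC (-2.39). In all 3 genes the siRNA 3 and NTC libraries lay close together and the siRNA 9 libraries far below them. MEGF6, a protein with EGF-like repeats, had 50.7 and 39.7 with siRNA 9, against 456 and 505 with siRNA 3 and 527 and 471 with NTC (-3.39 ± 0.10), and its 3′ UTR in the annotation used held no GCCTAA. EFNA1, an ephrin ligand, had 25.0 and 22.8 with siRNA 9, against 139.8 and 158 with siRNA 3 and 138 and 146 with NTC, and holds GCCTAAA. EDN2, an endothelin, was near its limit of detection with siRNA 9, at 0.675 and 3.97, against 25.0 and 53.6 with siRNA 3 and 23.3 and 23.5 with NTC.

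Genes that were high with siRNA 9 alone included RHOB, RGS2 and VDR. RHOB, a small GTPase of the actin cytoskeleton, had 766 and 755 in the siRNA 9 libraries, 186 and 172 in the siRNA 3 libraries and 189.9 and 180.5 in the NTC libraries (2.08 ± 0.08 against siRNA 3). RGS2, which turns off G protein signals, had 723 and 692 with siRNA 9, 181 and 161 with siRNA 3 and 173 and 161 with NTC (2.05 ± 0.10). VDR, the vitamin D receptor, had 173 and 209 with siRNA 9, 55.3 and 47.3 with siRNA 3 and 40.3 and 47.0 with NTC (1.87). For these genes the siRNA 3 libraries overlapped the NTC libraries or lay beside them, and neither siRNA 9 library came near. VDR holds TGCCTAA without the final A, although it was higher with siRNA 9. GFPT2, an enzyme that feeds the hexosamine pathway, LTBP1, which binds latent TGF-beta, CA13, a carbonic anhydrase, TMCC3 and CFAP45 were also higher with siRNA 9 alone, by 1.83 (CA13) to 2.94 (TMCC3), and TMCC3 holds GCCTAAA.

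Of the named genes that departed from NTC with siRNA 3 alone, SLC7A2 differed most from NTC. This transporter of cationic amino acids had 56.1 and 64.5 with siRNA 9, against 412 and 507 with siRNA 3 and 47.7 and 61.9 with NTC, a difference from NTC of 3.05 with siRNA 3 and 0.14 with siRNA 9. ALDH1A1, a retinaldehyde dehydrogenase, had 897 and 859 with siRNA 9, against 2003 and 2294 with siRNA 3 and 897 and 894 with NTC. BCL2L11, which encodes the pro-apoptotic protein BIM, had 224 and 248 with siRNA 9, against 523 and 593 with siRNA 3 and 276 and 247 with NTC. In these genes the siRNA 9 and NTC libraries were close and the siRNA 3 libraries stood above both. EPHA4, a receptor for ephrins, was also high with siRNA 3 alone (1.59 against NTC).

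Others were low with siRNA 3 alone. DYNLT3, a dynein light chain, had 889 and 841 with siRNA 9, against 237 and 239 with siRNA 3 and 750.0 and 895 with NTC (1.86 ± 0.07). LIPG, which encodes endothelial lipase, had 203 and 220.2 with siRNA 9, against 59.5 and 67.3 with siRNA 3 and 192 and 172 with NTC (1.73 ± 0.12). ARHGDIB, an inhibitor of small GTPase cycling, had 229 and 249 with siRNA 9, against 84.5 and 85.1 with siRNA 3 and 206 and 213 with NTC. For these genes both siRNA 3 libraries lay below every siRNA 9 and NTC library. LIPG holds TGCCTAA without the final A.

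Genes that the siRNAs moved in opposite directions had a median absolute difference of 0.74 between the siRNAs, beside 0.46 for all called genes. NTC lies between the siRNAs in this class, so a larger difference partly follows from its definition. CYP1B1, a cytochrome P450 of the aryl hydrocarbon receptor response, had 112 and 97.2 in the siRNA 9 libraries, 2797 and 3078 in the siRNA 3 libraries and 605 and 609 in the NTC libraries. It was lower than NTC with siRNA 9 (-2.53), higher with siRNA 3 (2.27), and the siRNAs differed by -4.80 ± 0.08. CLDN2, a pore-forming claudin of tight junctions, had 56.7 and 52.6 with siRNA 9, 601 and 549.6 with siRNA 3 and 138 and 121 with NTC (-3.37 ± 0.11), and holds the 8-base word. KMO, an enzyme of tryptophan breakdown, had 31.1 and 15.9 with siRNA 9, 220.2 and 250.1 with siRNA 3 and 49.9 and 51.3 with NTC. NTC lay between the siRNAs in all 3 genes. SLC16A12, ABCA12 and SMIM14 had the same order, with differences between the siRNAs of -4.45, -3.39 and -3.36.

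Genes high with siRNA 9 and low with siRNA 3 included SEMA7A, IL11 and STC1. SEMA7A, a membrane-anchored semaphorin, had 8249 and 8203 with siRNA 9, against 812 and 716 with siRNA 3 and 1492 and 1382 with NTC (3.43 ± 0.05). IL11, a cytokine of the IL-6 family, had 717 and 700.3 with siRNA 9, against 84.5 and 61.0 with siRNA 3 and 169 and 167 with NTC (3.29 ± 0.12). STC1, the hormone stanniocalcin 1, had 2053 and 2202 with siRNA 9, against 252 and 216 with siRNA 3 and 279 and 328 with NTC (3.18 ± 0.10). No library of 1 group overlapped another in these genes. NLRP3, the sensor of an inflammasome, SP140 and PRLR, the prolactin receptor, were ordered alike (3.26, 3.27 and 3.70). PRLR had 17.7 and 5.25 with siRNA 3, against 19.1 and 22.4 with NTC. SP140 had 20.9 and 9.46 with siRNA 3, against 27.6 and 35.2 with NTC. The falls of SP140 and PRLR with siRNA 3 thus rest on few reads. PRLR was higher with siRNA 9 and its 3′ UTR holds the 8-base word.

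The next 3 genes were chosen after their values were seen. VAV3, an exchange factor for small GTPases, had a table mean just under the 50 asked of named genes other than list members. It had 0.675 and 0 with siRNA 9, against 163 and 242 with siRNA 3 and 6.37 and 8.54 with NTC. TCOF1, a nucleolar protein of ribosomal RNA synthesis, had 5785 and 5751 with siRNA 9, against 1297 and 1289 with siRNA 3 and 5142 and 4678 with NTC. ATP2B4, a calcium pump of the plasma membrane, had 3457 and 3533 with siRNA 9, against 589.6 and 657 with siRNA 3 and 2318 and 2285 with NTC. For TCOF1 and ATP2B4 the larger departure was the fall with siRNA 3 (-1.92 and -1.89 against NTC).

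Some genes moved the same way with both siRNAs, but unequally. ANGPTL4, an inhibitor of lipoprotein lipase induced by hypoxia and PPAR receptors, had 1804 and 1882 in the siRNA 9 libraries, against 100.2 and 78.8 in the siRNA 3 libraries and 35.0 and 56.6 in the NTC libraries. It was higher than NTC by 5.34 with siRNA 9 and by 0.98 with siRNA 3. HMGA2, an architectural chromatin protein, had 3900.2 and 4067 with siRNA 9, against 935 and 738 with siRNA 3 and 484 and 517 with NTC. RTL3 was among the genes lower with both. It had 8.10 and 5.95 with siRNA 9, against 78.3 and 82.0 with siRNA 3 and 186 and 182 with NTC. The 3′ UTR used for RTL3 held no GCCTAA, although its difference from NTC with siRNA 9 was -4.54. Those of EDN2 (-3.08) and CYP1B1 (-2.53) held none either. TMEM47, a membrane protein of cell junctions, and ARHGAP29, which inactivates small GTPases, both hold the 8-base word shown above. TMEM47 was lower than NTC with siRNA 9 (-3.00) and with siRNA 3 (-0.36), and ARHGAP29 likewise (-2.77 with siRNA 9, -0.34 with siRNA 3).

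**Figure D3:**
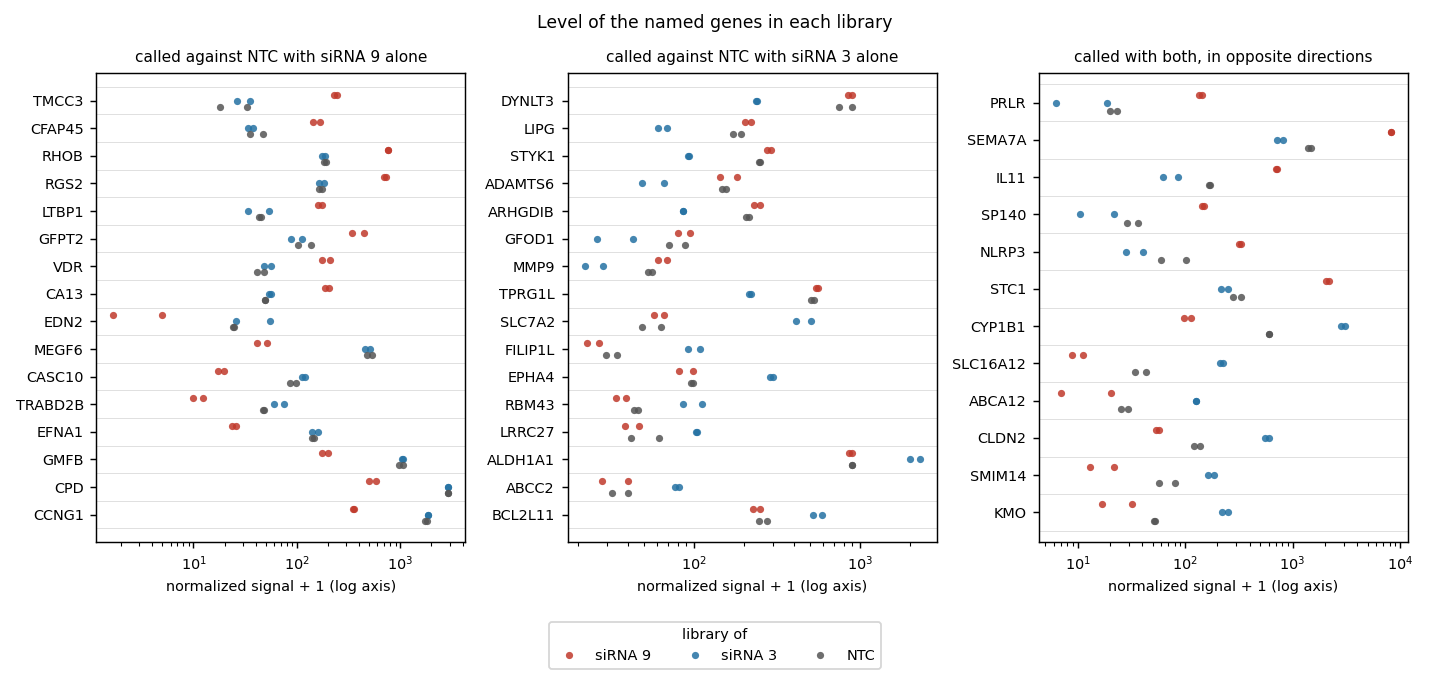
Normalized signal plus 1 in each library (horizontal axis, log scale) of the named genes, in panels by which siRNA departed from NTC, with 2 points each for siRNA 9 (red), siRNA 3 (blue) and NTC (grey). NTC lies with siRNA 3 on the left, with siRNA 9 in the middle and between the siRNAs on the right.

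The lists below were written from textbook knowledge, and each count between the siRNAs is to be read beside the 31.7% higher and 32.5% lower of all genes. Counts against NTC are to be read beside 29% higher and 29.4% lower of all genes with siRNA 9, and 20.3% higher and 21% lower with siRNA 3. Output of the MAPK pathway, whose feedback inhibitors and AP-1 factors report ERK activity, was higher with siRNA 9 more often than lower: of 26 measured members, 13 were higher and 5 lower than with siRNA 3, with a median of 0.38. DUSP5, a phosphatase of nuclear ERK, had 1374 and 1415 with siRNA 9, against 184 and 141 with siRNA 3 and 255 and 255 with NTC (3.11 ± 0.09). HBEGF, a ligand of the EGF receptor, had 1603 and 1611 with siRNA 9, against 255 and 222 with siRNA 3 and 594 and 649 with NTC (2.75 ± 0.08). SPRY4, a feedback inhibitor, was higher too (3.16), while EGR2, an immediate early factor, had the opposite order (-2.79). The 5 lower members became 3 without siRNA 9 replicate 2 or without siRNA 3 replicate 2.

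Interferon response genes were more often lower with siRNA 9. Of 30 measured, 4 were higher and 19 lower with siRNA 9 than with siRNA 3, and the median was -0.50. IFIT1, which binds foreign RNA ends, had 103 and 125 with siRNA 9, against 487 and 439 with siRNA 3 and 296 and 320.4 with NTC (-2.02 ± 0.12). NTC lay between the siRNAs for IFIT1. Against NTC the list had 6 members higher and 13 lower with siRNA 9 (29% and 29.4% of all genes), and 14 higher and 2 lower with siRNA 3 (20.3% and 21% of all genes). IFI44L was an exception and was higher with siRNA 9 than with siRNA 3 by 1.52 ± 0.36.

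Genes of cholesterol and fatty acid synthesis were higher with siRNA 9 in 20 of 33 cases and lower in 6, with a median of 0.26. Against NTC, 8 members were lower and 11 higher with siRNA 9, and 22 were lower and 3 higher with siRNA 3. SCD, the desaturase that makes oleic acid, stood apart, with 495 and 513 with siRNA 9, against 1782 and 2162 with siRNA 3 and 2294 and 2421 with NTC (-1.96 ± 0.06). Its 3′ UTR holds GCCTAAA.

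**Figure D4:**
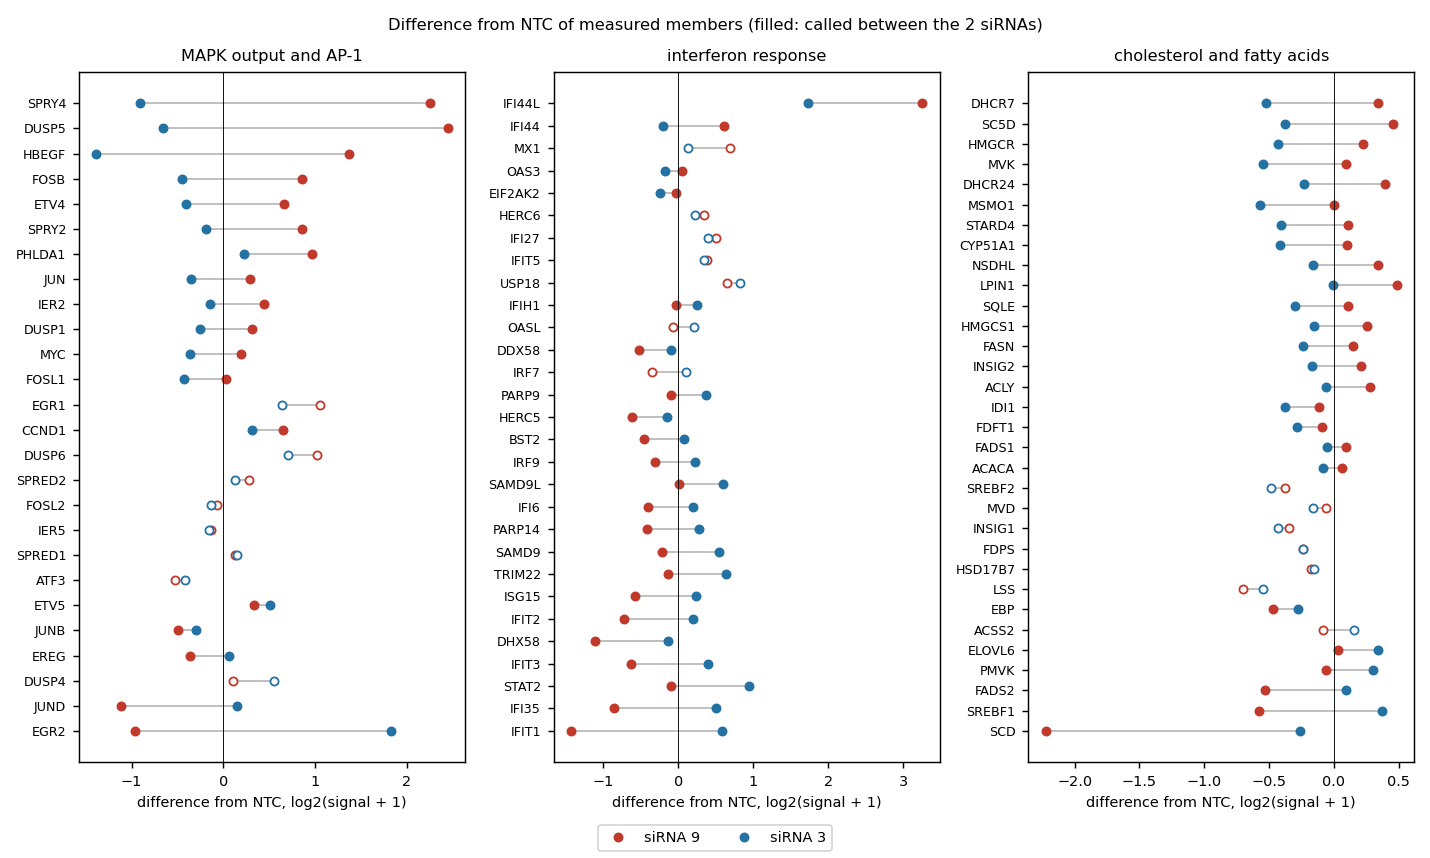
Difference from NTC (horizontal axis, log2(signal + 1)) of the measured members of 3 lists, with siRNA 9 in red and siRNA 3 in blue, filled where the siRNAs differed at an adjusted p below 0.05. In the first list 13 of 26 members lie farther right with siRNA 9 and are filled, in the second 19 of 30 lie farther left, and in the third 20 of 33 lie farther right; 1 member in the second list and 1 in the third are counted but not drawn.

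Targets of YAP and SRF and the cytoskeleton genes among them were higher with siRNA 9 in 20 of 34 cases and lower in 10, with a median of 0.24, and the 10 became 5 under quantile normalization. CTGF, a matricellular YAP target, had 453 and 517 with siRNA 9, against 154 and 161 with siRNA 3 and 264 and 253 with NTC (1.61 ± 0.09). ANKRD1, another, had 2128 and 2324 with siRNA 9, against 954 and 855 with siRNA 3 and 1877 and 2025 with NTC. Against NTC, 18 of the 34 were lower and 11 higher with siRNA 9 (median -0.15). With siRNA 3, 27 were lower and 0 higher than NTC (median -0.29).

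Adhesion genes split. Of 11 integrins, 4 were higher and 5 lower with siRNA 9. ITGA2, a collagen receptor chain, had 714 and 789.6 with siRNA 9, against 159.7 and 116 with siRNA 3 and 202 and 232 with NTC (2.46 ± 0.12). ITGB1, the common beta chain, had 4830.1 and 5216 with siRNA 9, against 14135 and 13757 with siRNA 3 and 15206 and 14903 with NTC (-1.47 ± 0.04), and holds the 8-base word. Among 42 matrix and TGF-beta genes, 14 were higher and 18 lower. FN1, fibronectin, had 9723 and 9117 with siRNA 9, against 29663 and 30022 with siRNA 3 and 16803 and 16790.2 with NTC. TNC, tenascin C, had the reverse order, with 3055 and 3067 with siRNA 9, against 862 and 919.5 with siRNA 3 and 1518 and 1477 with NTC.

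Cytokine and NF-kB genes had no common direction, with 10 of 25 higher and 9 lower. CXCL5, a neutrophil chemokine, had 2924 and 2897 with siRNA 9, against 815 and 758 with siRNA 3 and 1940.3 and 2066 with NTC (1.89 ± 0.05). BCL3, an atypical inhibitor of NF-kB, had 45.9 and 46.6 with siRNA 9, against 169 and 199 with siRNA 3 and 108 and 144 with NTC. The 10 higher members became 6 with DESeq2, with a table mean of at least 50, without siRNA 9 replicate 1 or without siRNA 3 replicate 1.

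Hypoxia genes are of interest in a line without VHL. Of 38 measured, 12 were higher and 20 lower with siRNA 9 than with siRNA 3 (median -0.18). Against NTC, 16 were higher and 15 lower with siRNA 9, and 22 higher and 6 lower with siRNA 3. EGLN3, a prolyl hydroxylase that marks HIF for breakdown and is itself induced by it, had 784 and 705 with siRNA 9, against 2075 and 2224 with siRNA 3 and 941 and 912 with NTC (-1.53 ± 0.06). EGLN1, the main such hydroxylase, had the reverse order, with 1179.8 and 1210.1 with siRNA 9, against 458 and 449 with siRNA 3 and 973 and 1003 with NTC. NDRG1 followed EGLN3 (-1.18). Of 21 glycolysis genes, 7 were higher and 11 lower with siRNA 9 (median -0.11). SLC2A3, a glucose transporter (1.24), and HK2, a hexokinase (1.04), were higher, while ENO2 (-0.61) and PFKP (-0.59) were lower.

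Kidney tubule genes were lower with siRNA 9 in 9 of 15 cases and higher in 4, with a median of -0.42. CD24, a surface protein of tubule progenitors, had 685 and 644 with siRNA 9, against 5181 and 6429 with siRNA 3 and 1199.8 and 1374 with NTC (-3.12 ± 0.07). VCAM1, an adhesion molecule, had 169 and 149.8 with siRNA 9, against 863 and 831 with siRNA 3 and 675 and 608 with NTC. CD24 was above NTC with siRNA 3 and below it with siRNA 9, and VCAM1 was farther from NTC with siRNA 9. CD24 has near-identical copies in the genome, so its counts are uncertain.

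Genes of the cell cycle were more often lower than higher with siRNA 9. Of 51 DNA replication genes 4 were higher and 32 lower than with siRNA 3 (median -0.21), and of 50 mitosis genes 5 were higher and 36 lower (median -0.29). CDC25C, the phosphatase that opens mitosis, had 269 and 252 with siRNA 9, against 577 and 606 with siRNA 3 and 435 and 437 with NTC (-1.18 ± 0.08). E2F2, a factor of S phase entry, had 77.0 and 69.4 with siRNA 9, against 224 and 227 with siRNA 3 and 179 and 179 with NTC. PCNA, the replication clamp, differed less (-0.53 ± 0.04). Against NTC, 33 mitosis genes were lower and 5 higher with siRNA 9, and 4 were lower and 19 higher with siRNA 3. The 4 higher replication genes became 1 or 2 when any siRNA 9 or siRNA 3 library was left out, and the 5 higher mitosis genes became 3 without siRNA 9 replicate 2 or siRNA 3 replicate 2. In bulk RNA, fewer cells in a phase and less RNA per cell cannot be told apart.

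Of 28 p53 targets, 11 were higher and 14 lower with siRNA 9. TP53INP1, a p53 cofactor that holds the 8-base word, differed between siRNA 9 and siRNA 3 by -2.54 ± 0.20, and from NTC by -1.65 with siRNA 9 and 0.88 with siRNA 3. GDF15, a stress cytokine, was not called between the siRNAs (0.27) and was higher than NTC by 2.35 with siRNA 9 and by 2.08 with siRNA 3.

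Genes of the lysosome, autophagy, redox defence and the endoplasmic reticulum were more often lower with siRNA 9. Of 46 lysosome and autophagy genes 10 were higher and 26 lower (median -0.18), of 24 NRF2 targets 7 higher and 14 lower (median -0.28), and of 32 ER genes 7 higher and 16 lower (median -0.17). GABARAPL1, which binds the autophagosome membrane, had 218 and 196 with siRNA 9, against 650.2 and 781 with siRNA 3 and 396 and 476 with NTC (-1.78 ± 0.09). HYOU1, an ER chaperone that holds the 8-base word, had 1736 and 1767 with siRNA 9, against 4565 and 4597 with siRNA 3 and 4148 and 3927 with NTC. For GABARAPL1 NTC lay between the siRNAs, and for HYOU1 it lay near siRNA 3. Of 34 ATF4 targets and tRNA synthetases 8 were higher and 12 lower, with SLC38A2, an amino acid transporter, at -1.56, and of 22 heat shock genes 9 were higher and 7 lower. Without siRNA 9 replicate 2 the higher members were 6 in place of 10 for the lysosome list and 4 in place of 7 for NRF2.

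The machinery that SARNP works with differed by small amounts. Of 37 measured TREX and mRNA export genes 17 were higher and 5 lower with siRNA 9 (median 0.11), and the largest difference was that of POLDIP3, an export adaptor, with 2359 and 2387 with siRNA 9, against 1499.6 and 1397 with siRNA 3 and 1746 and 1746 with NTC (0.71 ± 0.05). DDX19A, an RNA helicase of export, was higher too (0.59), but its reads cannot be told from those of its near copy DDX19B with certainty. ALYREF and THOC2, core TREX subunits, were not called (0.02 and 0.02). Of 38 speckle and SR proteins 13 were higher and 9 lower, and the 13 became 8 without siRNA 9 replicate 2. The 9 lower ones count FIBP (-0.51), a gene knocked down elsewhere in the study that is not a speckle or SR protein. SON, the scaffold of speckles, was not called (0.03 ± 0.04). LUC7L2, a splicing factor that holds the 8-base word, had 109 and 109 with siRNA 9, against 143 and 171 with siRNA 3 and 185 and 191 with NTC.

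Of 37 proteasome genes 19 were higher and 4 lower with siRNA 9 (median 0.10). The 4 became 2 without siRNA 9 replicate 1 or siRNA 3 replicate 2, and 7 under quantile normalization. PSMD4, a ubiquitin receptor of the proteasome, holds GCCTAAA and had 1696 and 1889.6 with siRNA 9, against 3239 and 3291 with siRNA 3 and 3064 and 2981 with NTC (-0.87 ± 0.05). Of 75 cytosolic ribosomal protein genes 1 was higher and 38 lower (median -0.12), and the 38 became 19 without siRNA 9 replicate 1 and 22 without siRNA 3 replicate 2. Against NTC, 63 ribosomal protein genes were lower and 0 higher with siRNA 9 (median -0.21). With siRNA 3, 20 were lower and 1 higher than NTC (median -0.10). Ribosomal protein genes have many processed copies in the genome, so their counts are uncertain. RPL3 had 12556 and 13196 with siRNA 9, against 15591 and 15892 with siRNA 3 and 17309 and 16864 with NTC (-0.29 ± 0.04). Of 57 genes of oxidative phosphorylation 6 were higher and 17 lower, and 11 were lower without siRNA 3 replicate 2.

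The RNA interference genes gave 5 higher and 6 lower of 15, and 3 higher without siRNA 9 replicate 2 or siRNA 3 replicate 2. DICER1, which cuts small RNA precursors, had 1586 and 1514 with siRNA 9, against 1058 and 1046 with siRNA 3 and 1167 and 1199 with NTC (0.56 ± 0.06), and holds TGCCTAA without the final A. AGO1, an Argonaute that holds the 8-base word, was lower (-0.51). Of 42 mRNA decay genes 13 were higher and 15 lower, with CNOT6L, a deadenylase that also holds the word, at -0.88. Of 16 noncoding RNAs of nucleus and snoRNA hosts 3 were higher and 9 lower (median -0.41). NEAT1, the scaffold of paraspeckles, had 287 and 269 with siRNA 9, against 757 and 893 with siRNA 3 and 803 and 843 with NTC (-1.56 ± 0.08). Of 18 genes often used as housekeeping controls 4 were higher and 10 lower, with TFRC, the transferrin receptor, at 0.91 and YWHAZ, a 14-3-3 protein, at -0.79.

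**Figure D5:**
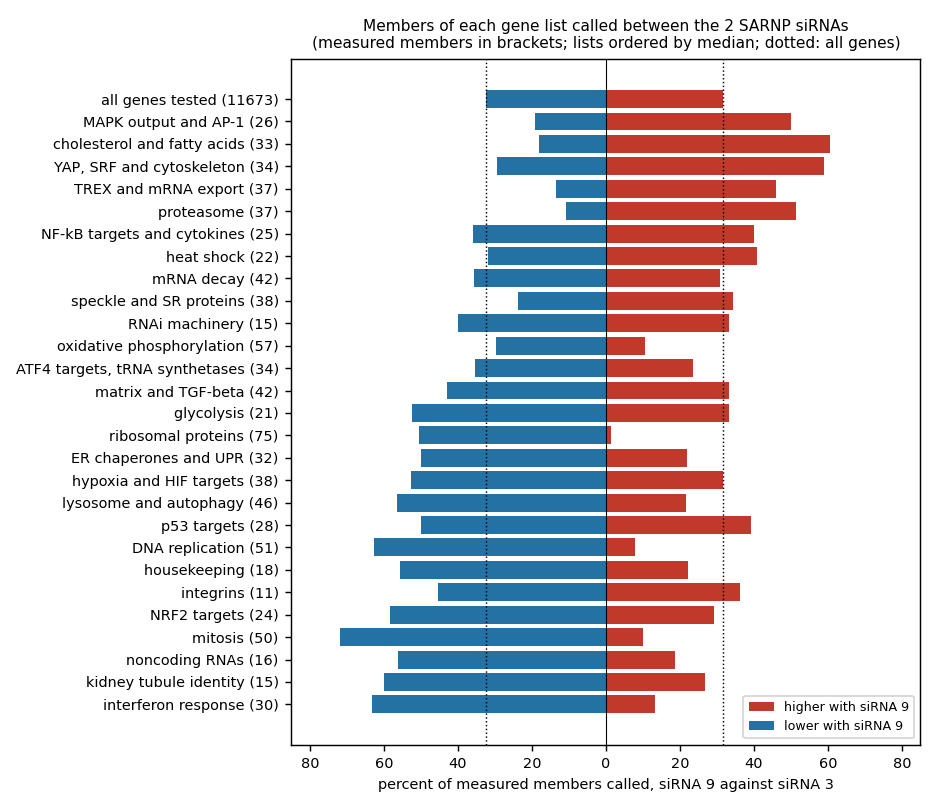
Percent of the measured members of each list (horizontal axis, 0 in the centre) that were higher (red, right) or lower (blue, left) with siRNA 9 than with siRNA 3, with the number of members in brackets and the shares of all 11673 genes (31.7% and 32.5%) as dotted lines. To the left mitosis (36 of 50 lower), interferon (19 of 30) and DNA replication genes (32 of 51) reach farthest, and to the right cholesterol genes (20 of 33 higher).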

How the data were processed

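RNA of 10 libraries, 5 groups of 2, was in the table used here: SARNP siRNA 9, SARNP siRNA 3, DDX39A siRNA 1, DDX39A siRNA 4 and NTC. The authors deposited a normalized signal for each gene symbol, which the values show to be gene counts over a size factor of the library. Per the submitters' processing notes, build hg19 and the tools DESeq2, HTSeq, Picard and STAR were used (versions and order not listed); the annotation and the strand counted are not given in the sources used here. Dividing by the smallest step of a library gave back whole reads (100% of values, tolerance 0.0001 of a read). In the 6 SARNP and NTC libraries, reads without a gene were 5.96% to 6.46% and ambiguous reads 1.58% to 1.65%, and both were left out.

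Of 11679 genes, 11673 had a table mean of at least 10 and were tested. With limma 3.58.1 in R 4.3.3 (lmFit, contrasts.fit and eBayes, trend on), 1 mean for each of the 5 groups was fitted to log2(signal + 1), with 5 residual and 31.8 prior degrees of freedom. Calls are two-sided, at p below 0.05 after Benjamini-Hochberg adjustment over all genes tested, and the procedure was tested on simulated data. Fold changes on this scale understate the change of low genes. Genes were then sorted by their calls against NTC, with no test of their own.

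The members, lists and words were chosen with earlier results of these data known. Named genes were SARNP, genes picked from the classes and members of the lists. Class genes were called, had libraries that do not overlap between the siRNAs and had a table mean of at least 50. They were up to 8 in each direction for siRNA 9 alone and for siRNA 3 alone. For both siRNAs they were up to 6 in each direction where these were opposite, and up to 3 for the same direction. Up to 4 called members of each list with the largest difference were added, and neither condition was asked of them. Some are low, such as EGR2 (table mean 15.9), IFI44L (21.9) and SPRY4 (32.4). Members of a list that were not called could also be named. Clone-based names and pseudogenes were left out. The text names a selection, and the values of some genes are not reported here. Genes with near-identical copies, such as RPS10, are uncertain. The 3′ UTR of 1 transcript a gene (the APPRIS principal one, then the longest) came from GENCODE v29 on GRCh38, and the miRNAs from RefSeq.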

Additional observations from a re-analysis of the deposited data

How the results depend on the processing

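Alternatives were a pseudocount of 5, no filter or a minimum table mean of 50, quantile normalization, on recovered reads DESeq2 1.42.0 and edgeR 4.0.16 (TMM), a fit of the 6 SARNP and NTC libraries alone, the replicate block, and leaving out each of those 6 libraries. Of the values that answer a comparison, 191 kept their direction and side of the threshold, or stayed within 1.5 times for a count, and 5 did not. With DESeq2, genes higher with siRNA 3 than NTC numbered 1572 (2373 as reported), genes called with both siRNAs in opposite directions 962 (1517) and in the same direction 481 (834); the cause was not tested. Genes called with neither siRNA against NTC numbered 574 to 1369 over the fits that leave out 1 library (700), with 1369 without NTC replicate 1 and 1365 without NTC replicate 2, fits with fewer control samples. No called value changed sign. The siRNA 3 gap from NTC between genes with TGCCTAAA and genes without GCCTAA, near 0 as reported (-0.012), changed sign without NTC replicate 2 (0.006) and was -0.020 without NTC replicate 1. The replicate numbers did not pair the samples: same-numbered deviations correlated from -0.06 to 0.04 over the table's groups. With the replicate block, 3691 genes were higher and 3790 lower with siRNA 9 than with siRNA 3 (3699 and 3788 as reported), and SARNP differed by -0.66. Of the named genes, RPS10 (-0.80) lost its call without siRNA 9 replicate 1 (-0.65, adjusted p = 0.077) and without siRNA 3 replicate 2 (-0.59, adjusted p = 0.12, limma with Benjamini-Hochberg). Of single genes, list counts and word gaps, 33 values moved and 3064 did not; the list counts that matter stand beside their lists. Quantile normalization gave 7 proteasome members lower (4 as reported). The scalings moved the median of all genes by less than 0.1, and 49.1% to 50.7% of calls were higher. With 2 libraries a group, genes near the minimum mean are measured with few reads, and small differences there were not detectable.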
